A study of Mus musculus with 6 samples.

Results

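Esrp1, Esrp2, Rbm47, Rbfox2, Qk, Mbnl1, Mbnl2, Celf1, Ptbp1 and Srsf1 encode 10 RNA-binding proteins that choose exons in epithelial or in mesenchymal cells. They were picked by name for that role, with earlier results of these data known. Each was looked up by its symbol in a table of 43548 mouse gene identifiers. A symbol carried by several rows, here Srsf1 with 2, was read from the row with the highest mean. All 10 genes were found, and 9 of them had a mean of at least 1 FPKM and entered the comparison, in which 12879 genes were tested. Esrp1 was below that limit.

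Met-1 cells are a mammary carcinoma line of the FVB/nJ mouse strain that grew out of a late-stage MMTV-PyMT tumor. In Met-1 TripZ-200c cells, a lentiviral pTripZ vector with an RFP tag makes the precursor of miR-200c once doxycycline (Dox) is present. They are a single clone, sorted first for cells that were not leaky without Dox and then for intermediate RFP with it. The question was which mRNAs differ after miR-200c restoration. The -Dox group is Met-1 TripZ-200c cells given vehicle (diH2O) for 48 h, and the +Dox group is the same cells given 1 µg/mL Dox for 48 h, each with 3 libraries from cells plated in triplicate. The labels name DMEM as the growth medium and RPMI as the medium of the treatment. The labels do not say whether the 3 platings of a group came from separate cultures. A legend of the paper ties the sequencing to samples of a qRT-PCR panel from several experiments, which had a longer time with Dox than the labels give. The paper's methods give 48 h for the sequencing, as the labels do. They describe all tissue culture experiments as means of 3 separate experiments, without naming the sequencing there. Whether the libraries are from separate experiments is thus not clear. The p-values measure only the spread between these libraries, which may be technical. Empty-vector cells were not analysed here, and an effect of Dox itself cannot be told apart from an effect of miR-200c.

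Alternative splicing lets a gene give different mRNAs, and many genes of adhesion and the cytoskeleton use other exons in epithelial than in mesenchymal cells. Esrp proteins and Rbm47 favor epithelial exons, whereas Rbfox2 and Quaking, the product of Qk, favor mesenchymal ones, each by binding short motifs beside the exon. miRNAs of the miR-200 family keep cells epithelial by pairing through their seed with 3′ UTRs, and Quaking mRNA is a known target of the family.

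The values are FPKM, in which the fragments on a gene are divided by its length and by the depth of the library. They add up over all transcripts of a gene, so exon choice itself was not measured. FPKM summed to between 800267 and 815139 per library, and how many reads stand behind each value is not known.

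The mature miRNA sequences are shown because the seed decides which 3′ UTRs can pair. They were taken from RefSeq (GRCm38.p6), where miR-200c-3p is at chr6:124718324-124718346 on the minus strand, and capitals mark the seed, bases 2 to 8. The first group shares the seed of miR-200c.
miR-200c-3p: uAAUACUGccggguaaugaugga
miR-200b-3p: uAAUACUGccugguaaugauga
miR-429-3p: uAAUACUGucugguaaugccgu
The other members of the family have another seed.
miR-200a-3p: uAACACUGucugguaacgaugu
miR-141-3p: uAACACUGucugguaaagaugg

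In DNA letters, the complement of the miR-200c seed is CAGTATT, and the longest annotated 3′ UTR of each gene (GRCm38) was searched for them on the transcribed strand. Of the 10 genes, 5 held at least 1 match. For comparison, 16.9% of the 10812 tested genes with an annotated 3′ UTR held 1 or more. Long 3′ UTRs hold matches more often, and those of Qk, Celf1 and Rbfox2 are long. The sites of Qk, Rbfox2 and Srsf1, the genes with more than 1 match, are printed with the match in capitals and 11 bases on either side. All of them lie in the 3′ UTR, within 1 exon.
Qk, chr17:10207326-10207354, minus strand: acaaacagtacCAGTATTtgatccagtct
Qk, chr17:10207106-10207134, minus strand: gccttggttctCAGTATTatcactctatt
Qk, chr17:10207034-10207062, minus strand: ttttttcctgaCAGTATTatgtaattttt
Rbfox2, chr15:77079739-77079767, minus strand: ttttctgttaaCAGTATTtcttgtgtgcg
Rbfox2, chr15:77079193-77079221, minus strand: ttcagaccataCAGTATTcattgggttac
Srsf1, chr11:88050122-88050150, plus strand: gatgaaattggCAGTATTgaccttatact
Srsf1, chr11:88051832-88051860, plus strand: gaactcaaattCAGTATTaacattaggag

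The 3 matches of Qk lie 2272, 2492 and 2564 bases after the stop codon in a 3′ UTR of 7014 bases. Among tested genes with a 3′ UTR of 0.8 to 1.25 times that length, 153 of 291 (52.6%) held a match and 18 (6.19%) held 3 or more. Rbfox2 had its 2 matches near the end of a 3′ UTR of 5172 bases, and 82 of 690 genes (11.9%) of like length had 2 or more. Srsf1 had 2 in 4149 bases, and 101 of 1173 genes (8.61%) of like length had 2 or more. Celf1 and Ptbp1 had 1 each. Esrp1, Esrp2, Rbm47, Mbnl1 and Mbnl2 had 0, which says only that these letters are not in the 3′ UTR searched. Of the tested genes of like length, 20.8%, 12.7%, 26.1%, 32.6% and 27.6% held a match, in that order. A match is a description of the sequence, and whether miR-200c bound any of these sites was not tested.

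**Figure D1:**
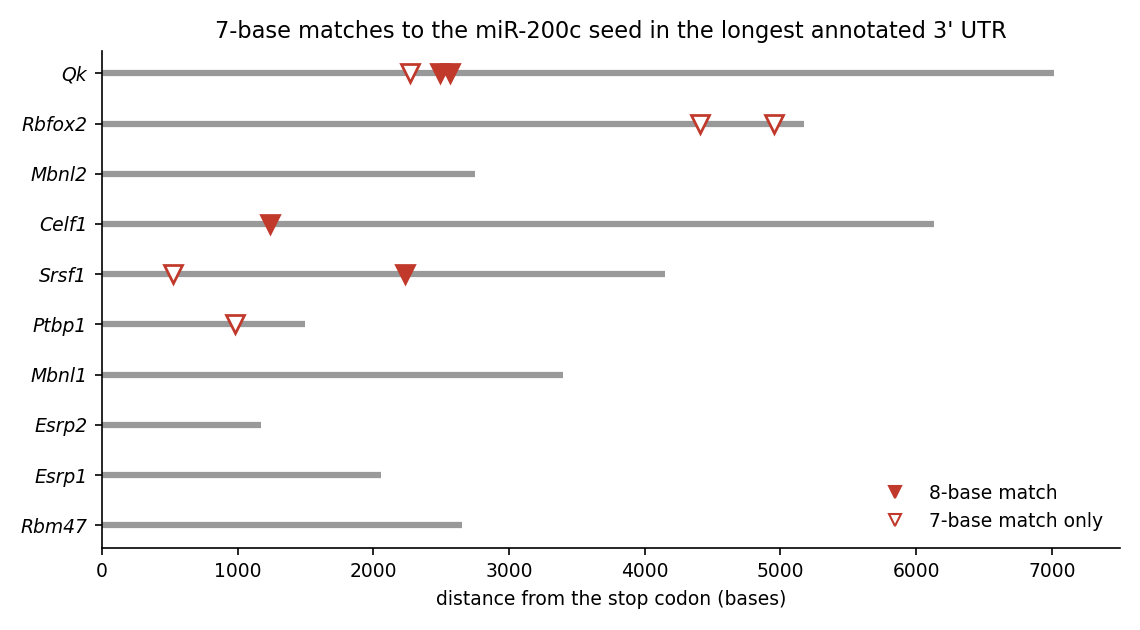
Position of each match to the miR-200c seed (triangles) along the longest annotated 3′ UTR (grey lines) of the 10 genes, in bases from the stop codon. Filled triangles are matches that the 8-base form also found. Qk has 3 matches, Rbfox2 and Srsf1 have 2 each, Celf1 and Ptbp1 have 1 each, and Esrp1, Esrp2, Rbm47, Mbnl1 and Mbnl2 have 0.

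Of the 9 genes tested, 6 passed limma at an adjusted p under 0.05, against 15.0% of all 12879 genes. Esrp2, Rbm47 and Mbnl1 were higher with Dox, as were 7.06% of all genes. Qk, Rbfox2 and Mbnl2 were lower, as were 7.97% of all genes. In the same 6 genes the 3 values with Dox lay apart from the 3 values without, which held for 35.0% of the 12875 genes with 6 values. The median log2 fold change of the 9 genes was -0.0020, against 0.0039 over all genes, because the genes moved both ways. The median size of the change, whatever its direction, was 0.40 on the log2 scale, against 0.13 over all genes. All fold changes are on the scale of log2(FPKM + 0.1), where the added 0.1 shrinks the change of low genes.

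**Figure D2:**
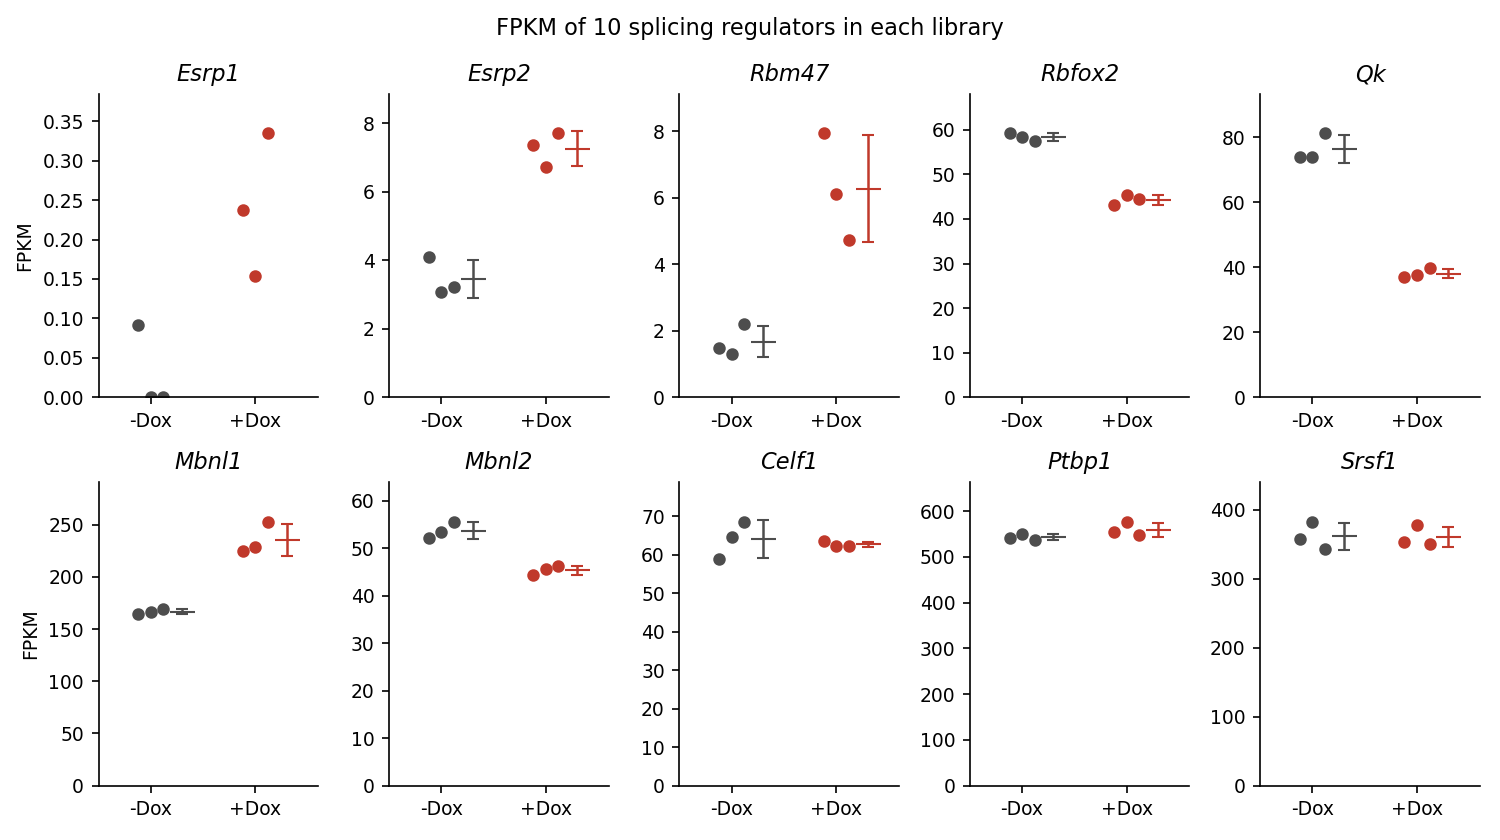
FPKM of each of the 10 splicing regulators in each library (points, 3 without Dox in grey and 3 with Dox in red), with the mean and SD of each group beside them except for Esrp1, which was listed at 0 in some libraries. Each vertical axis starts at 0 and has its own range. The groups lie apart for Esrp2, Rbm47, Rbfox2, Qk, Mbnl1 and Mbnl2, and they overlap for Celf1, Ptbp1 and Srsf1. Those of Esrp1 lie apart too, at values of at most 0.335 FPKM.

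Esrp1 and Esrp2 encode a pair of related splicing regulators that are largely restricted to epithelial cells, where they set the epithelial exons of genes such as Fgfr2, Cd44 and Ctnnd1. Esrp1 (ENSMUSG00000040728, chr4:11331933-11386783) had 0.0921, 0 and 0 FPKM without Dox, and the libraries with Dox had 0.237, 0.154 and 0.335 FPKM. All 3 libraries with Dox were above all 3 without, at levels where few reads would be expected. A gene listed at 0 need not be silent in this table, in which all 37 mitochondrial genes are at 0 too. Fitted without the filter on low values, over 20513 genes of which 7.84% passed, Esrp1 had a log2 fold change of 1.43 (95% interval 0.52 to 2.33, adjusted p = 0.0785 from limma). It did not pass the threshold, and in 13 alternative settings its adjusted p ranged from 0.0583 to 0.207. The size of the change is set by the pseudocount, from 0.27 with 1 to 3.47 with 0.01.

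Esrp2 (ENSMUSG00000084128, chr8:106130319-106136974) stood at 4.09, 3.07 and 3.22 FPKM in the libraries without Dox, against 7.36, 6.72 and 7.72 FPKM in those with Dox. The groups did not overlap, and the lowest library with Dox was well above the highest without. The mean rose from 3.46 ± 0.554 to 7.26 ± 0.507 FPKM (SD, n = 3 each). The log2 fold change was 1.06 (standard error 0.143, 95% interval 0.72 to 1.39, adjusted p = 0.00402 from limma). In bulk RNA, a rise in every cell and a larger share of cells with the transcript cannot be told apart, for Esrp2 as for the other genes. Of the longest Esrp2 transcript 9.73% is shared with other genes, mostly Nfatc3 on the opposite strand.

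The ratio of Esrp2 to Esrp1 was 4.83 ± 0.331 without Dox and 4.46 ± 0.289 with Dox (SD, n = 3 each, as log2 of FPKM + 0.1). Since Esrp1 was listed at 0 in 2 libraries without Dox, the added 0.1 sets much of this ratio. The difference of -0.37 was within reach of the spread between libraries (two-sided exact permutation p = 0.3, where the smallest possible is 0.1). With a pseudocount of 1 the difference was 0.63 (exact permutation p = 0.1), and with 0.01 it was -2.40 (p = 0.2). It was -0.56 without MinusDox replicate 1, and -0.22 without PlusDox replicate 3, the ends of the range when single libraries were left out. These values give no direction for the balance of the pair. In every library Esrp2 was far above Esrp1.

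Rbm47 (ENSMUSG00000070780, chr5:66016549-66173118) encodes an RNA-binding protein that is abundant in epithelia, sets epithelial exons and also assists the editing of C to U in mRNA. It was at 1.49, 1.31 and 2.21 FPKM in the -Dox libraries and at 7.95, 6.12 and 4.74 FPKM in the +Dox libraries. The groups lay apart although the libraries with Dox were widely spread. The mean was 1.67 ± 0.476 FPKM without Dox and 6.27 ± 1.61 FPKM with Dox (SD, n = 3 each), and the log2 fold change of 1.85 was the largest of the 9 genes tested (standard error 0.261, 95% interval 1.23 to 2.47, adjusted p = 0.00479 from limma). An unmoderated linear model on FPKM did not pass Rbm47 (adjusted p = 0.0686), and over 14 alternatives the adjusted p ranged from 0.00457 to 0.0686.

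Rbfox2 (ENSMUSG00000033565, chr15:77078990-77307004) encodes a regulator of exons used in mesenchymal, muscle and nerve cells. It had 59.3, 58.5 and 57.5 FPKM without Dox, and the libraries with Dox had 43.2, 45.4 and 44.5 FPKM. The libraries of each group lay close together and the groups did not overlap. The mean fell from 58.4 ± 0.900 to 44.3 ± 1.14 FPKM (SD, n = 3 each), with a log2 fold change of -0.40 (standard error 0.0413, 95% interval -0.49 to -0.30, adjusted p = 0.00128 from limma).

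Qk (ENSMUSG00000062078, chr17:10202601-10319854) encodes Quaking, a KH-domain protein that sets mesenchymal exons and helps to form circular RNAs. It stood at 73.8, 73.7 and 81.2 FPKM in the libraries without Dox, against 36.9, 37.6 and 39.6 FPKM in those with Dox. Every library with Dox was far below every library without, and this was the deepest fall among the 9 genes. The mean was 76.3 ± 4.30 FPKM without Dox and 38.0 ± 1.40 FPKM with Dox (SD, n = 3 each). The log2 fold change was -1.0 (standard error 0.0551, 95% interval -1.13 to -0.87, adjusted p = 1.09e-04 from limma), and it stayed between -1.03 and -0.95 over 15 alternatives. Qk is also the gene with the most matches to the miR-200c seed among the 10, as printed above, and the one with the longest 3′ UTR. Per kilobase of 3′ UTR, Qk had 0.428 matches, below Ptbp1 (0.669) and Srsf1 (0.482) and above Rbfox2 (0.387) and Celf1 (0.163). The number of matches with 7 bases and the change did not go together in all genes. Srsf1 has as many matches as Rbfox2, and Mbnl2, which fell, has 0. With 6 bases (AGTATT), Srsf1 has 5, Rbfox2 has 3 and Mbnl2 has 2. With 8 bases (CAGTATTA), Srsf1 has 1, and Rbfox2 and Mbnl2 have 0. Whether the matches had a part in the changes was not tested.

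Zeb1 and Zeb2, EMT transcription factors whose mRNAs are targets of miR-200c, are given for scale. Without Dox, Zeb1 was at 41.0, 42.1 and 42.3 FPKM, and with Dox at 19.8, 20.3 and 23.6 FPKM. The groups lay far apart, and the log2 fold changes of Zeb1 and Zeb2 from limma were -0.98 (adjusted p = 3.62e-04) and -1.81 (adjusted p = 4.48e-05). The fall of Qk was about as large as that of Zeb1 and smaller than that of Zeb2, without a test of these differences. Zeb1 and Zeb2 belong to a list of 12 EMT genes, of which 8 were tested and 7 passed (15.0% of all genes did), 2 higher and 5 lower (7.06% and 7.97% of all genes). Snai2 did not pass, and Cdh1, Grhl2, Ovol1 and Ovol2 were below the filter. Epcam was higher, at 4.2 on the log2 scale (adjusted p = 5.26e-04 in limma), which was 2.16 with a pseudocount of 1 and 4.93 with 0.01. With means of 0.128 FPKM without Dox and 4.06 FPKM with Dox, Epcam met the filter only through the +Dox libraries, and without the filter its adjusted p was 9.59e-04. Fitted without the filter, Cdh1 was higher with 2.49 (adjusted p = 0.0125 from limma), or 0.77 and 3.56 with these pseudocounts. In the same fit by limma, Grhl2 had -0.28 (adjusted p = 0.682) and Ovol1 had 0.09 (adjusted p = 0.914), and neither passed. Ovol2 was listed at 0 in all 6 libraries. Cdh1 passed in 9 of 13 alternatives, with adjusted p-values from 0.0124 to 0.164. It was lost with the replicate block (0.0721), in the unmoderated linear model on FPKM (0.164), and without MinusDox replicate 2 (0.0503) or 3 (0.0505). Vim was lower at -0.35 (adjusted p = 5.66e-04), and of 15 alternatives, with adjusted p-values from 4.05e-04 to 0.0514, quantile normalization alone did not pass it. The gene of miR-200c itself was listed at 0 in all 6 libraries, so these libraries hold no measure of its induction.

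**Figure D3:**
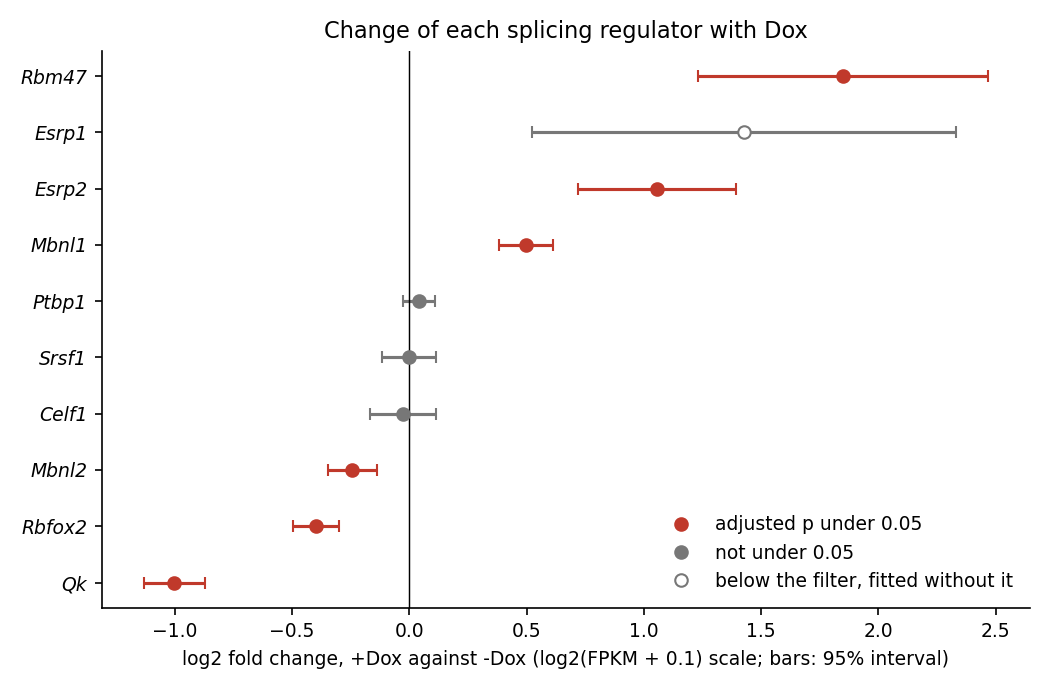
Log2 fold change with Dox of each splicing regulator (points) on the scale of log2(FPKM + 0.1), with its 95% interval (bars), in order of size. Red points had an adjusted p under 0.05, and the open point is Esrp1, fitted without the filter. With this pseudocount, Rbm47 at 1.85 and Qk at -1.0 are the ends of the range; with 0.01 Esrp1 would be at 3.47.

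Mbnl1 and Mbnl2 encode muscleblind proteins, zinc finger proteins that promote or block exons by where they bind and that replace fetal with adult exons in muscle. Mbnl1 (ENSMUSG00000027763, chr3:60472830-60629750) was at 164, 166 and 169 FPKM in the -Dox libraries and at 225, 229 and 253 FPKM in the +Dox libraries. The groups did not overlap, and the libraries with Dox were more spread. The mean rose from 167 ± 2.47 to 236 ± 15.3 FPKM (SD, n = 3 each), with a log2 fold change of 0.50 (standard error 0.0488, 95% interval 0.38 to 0.61, adjusted p = 0.00101 from limma).

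Mbnl2 (ENSMUSG00000022139, chr14:120275669-120431697) moved the other way. It had 52.1, 53.4 and 55.6 FPKM without Dox, and the libraries with Dox had 44.3, 45.6 and 46.2 FPKM. All 3 libraries with Dox were below those without, by a small distance. The mean was 53.7 ± 1.78 FPKM without Dox and 45.4 ± 0.960 FPKM with Dox (SD, n = 3 each), and the log2 fold change was -0.24 (standard error 0.0445, 95% interval -0.35 to -0.14, adjusted p = 0.0130 from limma). As a ratio of FPKM, Mbnl2 to Mbnl1 was 0.317, 0.321 and 0.328 without Dox and 0.197, 0.199 and 0.182 with Dox. The ratio was lower in all 3 libraries with Dox, and the difference in its log2 was -0.74 (two-sided exact permutation p = 0.1, the smallest possible with 3 against 3).

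Celf1, Ptbp1 and Srsf1 encode regulators that are active in most cell types, and none of the 3 passed the threshold. Celf1 (ENSMUSG00000005506, chr2:90940382-91019497), which often acts against muscleblind proteins on the same exons, stood at 58.8, 64.6 and 68.6 FPKM in the libraries without Dox, against 63.5, 62.3 and 62.3 FPKM in those with Dox. The libraries with Dox lay inside the range of those without. Its log2 fold change was -0.03 (95% interval -0.17 to 0.11, adjusted p = 0.811 from limma).

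Ptbp1 (ENSMUSG00000006498, chr10:79854427-79864771), the polypyrimidine tract binding protein that represses many exons, was at 541, 550 and 538 FPKM in the -Dox libraries and at 554, 577 and 547 FPKM in the +Dox libraries. The groups overlapped, and the log2 fold change was 0.04 (95% interval -0.03 to 0.11, adjusted p = 0.381 from limma). Ptbp1 shares 49.3% of its longest transcript with other genes, 28.1% with Gm4900, so its level is uncertain. Srsf1 (ENSMUSG00000018379, chr11:88047373-88053755), an SR protein that promotes the use of exons it binds, had 357, 383 and 343 FPKM without Dox, and the libraries with Dox had 354, 377 and 351 FPKM. These groups overlapped almost fully, with a log2 fold change of -0.0020 (95% interval -0.12 to 0.11, adjusted p = 0.985 from limma).

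FPKM are per length, so the genes can be ordered by level. The place of Ptbp1 is uncertain, since 49.3% of its longest transcript is shared with other genes. Without Dox the order was Ptbp1, Srsf1, Mbnl1, Qk, Celf1, Rbfox2, Mbnl2, Esrp2, Rbm47 and Esrp1, and the only neighbors whose libraries overlapped were Celf1 and Rbfox2. With Dox the order was Ptbp1, Srsf1, Mbnl1, Celf1, Mbnl2, Rbfox2, Qk, Esrp2, Rbm47 and Esrp1. There the libraries of Mbnl2 overlapped with those of Rbfox2, and those of Esrp2 with those of Rbm47. Qk was thus 4 in the order without Dox and 7 with Dox. The epithelial regulators stayed at the bottom of the order with Dox: the highest value of Esrp2 or Rbm47 in any library was 7.95 FPKM, below the lowest of Qk, 36.9 FPKM.

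Markers were summed to check the cell type. The 8 epithelial markers summed to 98.0, 91.6 and 92.5 FPKM without Dox and to 370, 400 and 407 FPKM with Dox. Nearly all of this was Krt18, only 2 of the 8 had a mean of at least 1 FPKM, and Krt5 was at 0. The 4 mesenchymal markers, led by Vim, summed to 8252, 8165 and 7978 FPKM without Dox and to 6003, 6234 and 5685 FPKM with Dox, with 2 values of Fn1 missing. Vim and S100a4 carried the fall, while Cdh2 overlapped between the groups (log2 fold change -0.06, adjusted p = 0.342 from limma) and Fn1 had 0.06 (adjusted p = 0.371). Both sums lay apart between the groups, and their part in the values of the splicing regulators was not tested. Apart from Pdgfra, markers of other cell types were listed at low values or at 0, which need not mean absence in this table. Immune markers, led by Lyz2, summed to at most 2.65 FPKM in a library with Emr1 and Cd3e at 0, and all 4 adipocyte markers were at 0. Endothelial markers, led by Cdh5, summed to between 4.19 and 5.12 FPKM. Fibroblast markers, led by Pdgfra and with Lum at 0, summed to 20.2, 19.0 and 20.1 FPKM without Dox and to 17.2, 16.5 and 14.9 FPKM with Dox, so this sum lay apart too.

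The other splicing genes were grouped in lists of relatives, other regulators, the spliceosome and target genes. Of the 16 relatives of the 10 genes, such as Rbfox1, Mbnl3, Ptbp2 and the other Celf genes, 8 were tested. Celf4 alone passed (12.5% of those tested, against 15.0% of all genes). Celf4 stood at 18.1, 17.8 and 18.7 FPKM in the libraries without Dox, against 22.8, 21.7 and 24.0 FPKM in those with Dox. The groups lay apart, and limma gave a log2 fold change of 0.32 (adjusted p = 0.0139). Without the PlusDox library of replicate 3 the adjusted p was 0.0562, the highest of 15 alternatives, of which the lowest was 0.0114. Mbnl3 passed in 1 alternative, without PlusDox replicate 1.

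Of the 12 other SR proteins, which mark exons for use, 11 were tested and 0 passed in limma, while 2 had an unadjusted p under 0.05, as did 3761 of all 12879 genes, a larger share. An unmoderated linear model on FPKM also passed 0, and of the 15 alternatives only quantile normalization passed any, Srsf9. Of the 26 other splicing regulators, among them the Clk and Srpk kinases, 21 were tested and 0 passed in limma or in that model, while 4 had an unadjusted p under 0.05 in limma, again a smaller share than over all genes. Srpk2 passed with a minimum mean of 5 FPKM and Raver1 without MinusDox replicate 2, and the other 13 alternatives passed 0. The median log2 fold changes were -0.02 for the SR proteins and -0.01 for the other regulators.

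All 23 hnRNP proteins, which coat nascent RNA and often block exons, were tested, and 2 passed (8.70%, against 15.0% of all genes). Hnrnpd, which also governs mRNA decay, was at 393, 399 and 394 FPKM in the -Dox libraries and at 349, 341 and 325 FPKM in the +Dox libraries. It was lower in every library with Dox, and limma gave a log2 fold change of -0.22 (adjusted p = 0.00567). Hnrnpab was higher, and limma gave a log2 fold change of 0.13 (adjusted p = 0.0117), but limma without the trend gave 0.0884, the highest of 15 alternatives (lowest 0.0101). Its value is uncertain, since 38.6% of its longest transcript is shared with other genes, mostly Phykpl on the opposite strand, and how the counting used strand is not given in the sources used here. Hnrnpul2 passed only in the unmoderated model and Hnrnpl only without PlusDox replicate 2.

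All 43 core spliceosome genes were tested, and Aqr, a helicase of the spliceosome, alone passed (2.33%, against 15.0% of all genes). Aqr had 29.3, 28.7 and 29.6 FPKM without Dox, and the libraries with Dox had 36.9, 34.1 and 32.7 FPKM. The groups lay apart, and limma gave a log2 fold change of 0.24 (adjusted p = 0.0340), but Aqr passed in only 7 of 15 alternatives, with adjusted p-values from 0.0290 to 0.0954. Snrpb2 passed in 3 alternatives, and with the replicate block it passed in place of Aqr. Sf3b3 (scaling to the same median), Snrpg (without MinusDox replicate 1), Snrpe (without MinusDox replicate 2) and Ddx23 (without PlusDox replicate 1) passed in 1 each.

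The 22 genes whose exons are known to differ between epithelial and mesenchymal cells were examined for their total level. Of these 21 were tested, Itga6 was higher and Cd44 was lower (9.52% together, against 15.0% of all genes). Over all genes, 7.06% were higher and 7.97% lower. Itga6, the alpha subunit of a laminin receptor, stood at 91.2, 91.3 and 90.2 FPKM in the libraries without Dox, against 107, 110 and 111 FPKM in those with Dox. The groups were tight and apart, and limma gave a log2 fold change of 0.27 (adjusted p = 0.00309). Cd44, the hyaluronan receptor whose variable exons are a standard readout of Esrp activity, was at 217, 220 and 216 FPKM in the -Dox libraries and at 191, 200 and 199 FPKM in the +Dox libraries. It was lower in every library with Dox, at a log2 fold change of -0.15 in limma (adjusted p = 0.0208). Cd44 passed in 8 of 15 alternatives, with adjusted p-values from 0.0154 to 0.0783. The replicate block was among those that did not pass it (adjusted p = 0.0599 in limma). Ralgps2 passed in 1 alternative, without MinusDox replicate 3. Which exons these mRNAs carried was not measured.

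Over the 6 lists, 127 of 142 genes were tested and 6 passed, 4 higher and 2 lower, which is 4.72% against 15.0% of all genes tested. Their log2 fold changes ranged from -0.63 to 0.32 with a median of 0.01. Among the 6 regulators named at the start that passed, Rbm47, Esrp2, Mbnl1, Rbfox2 and Qk had changes larger in size than that of Celf4, the largest that passed in these lists. Ralgps2, at -0.63, was larger still in size than Mbnl1 and Rbfox2 but did not pass. No test compared the lists with each other or with the 10 genes.

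**Figure D4:**
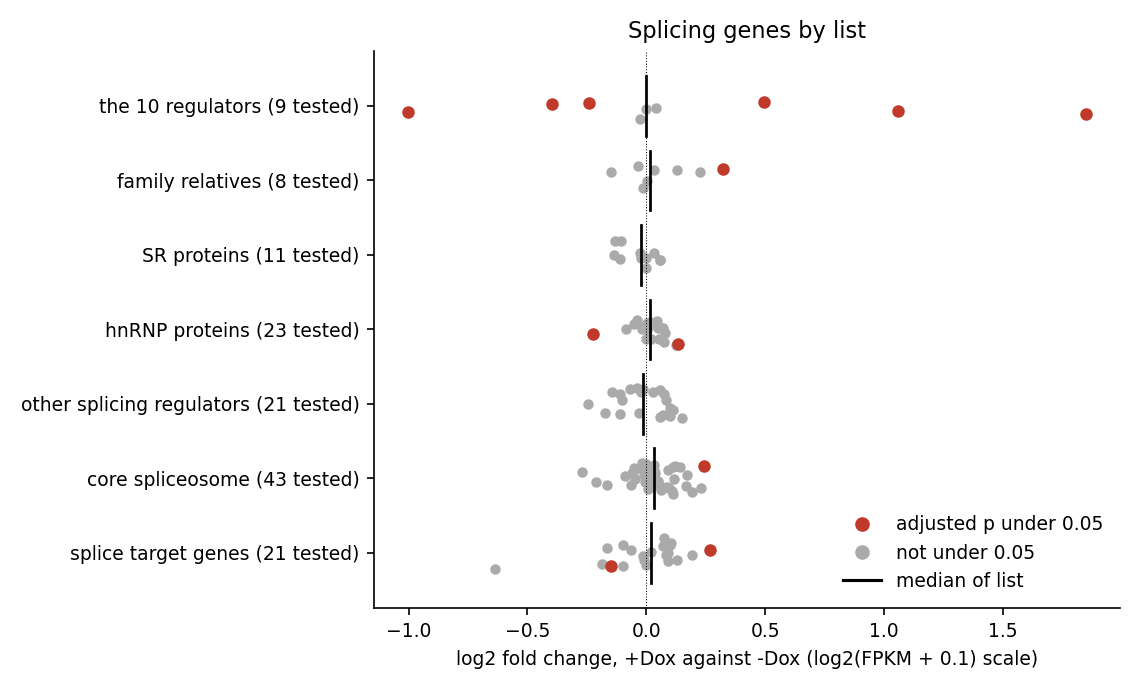
Log2 fold change with Dox of each tested gene (points) on the scale of log2(FPKM + 0.1), by list, with the median of the list as a black line. Red points had an adjusted p under 0.05. The points of the 9 tested regulators reach from -1.0 to 1.85, whereas those of the other lists lie between -0.63 and 0.32.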

How the data were processed

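mRNA of 3 -Dox and 3 +Dox libraries was prepared with a stranded kit and read as single reads. The authors mapped reads with gSNAP, estimated expression with Cufflinks (version not given in the sources used here; build GRCm38.p6, with the assembly FVB_NJ_v1 also named) and deposited FPKM per gene and library. Their group means, fold changes, p-values and q-values were not used. The members and lists were chosen with earlier results of these data known. Repeated identifiers kept their row of highest mean (63 rows dropped), and 6 placeholder values in 4 genes, none of them a member, were treated as missing. There were 0 unused per-sample columns. Means under 1 FPKM were filtered out, and the other genes were fitted in R 4.3.3 by limma 3.58.1 (lmFit, eBayes with a trend, group as the only term) after taking log2(FPKM + 0.1). The threshold was 0.05 after Benjamini-Hochberg adjustment. The model was tested on simulated data. Ratios within a library were compared by two-sided exact permutation tests. From each list, up to 3 genes with the largest increase and 3 with the largest decrease among those that passed were named, beside the 10 members and 5 EMT genes. Genes that passed only in an alternative, and S100a4, Cdh2 and Fn1, were named after their values were seen. The fits of Snai2, Grhl2, Ovol1 and Pdgfra were also added after their values were seen. 3′ UTRs came from the GENCODE annotation of GRCm38 and miRNAs from RefSeq. Shared sequence was found with BLAST 2.17.0 (95% identity over at least 50 bases). Python 3.11.15, numpy 2.4.6, pandas 2.3.3 and matplotlib 3.10.9 were used. Alternatives were other pseudocounts, filters, scalings and models, a replicate block, seed matches of other lengths, and the omission of each library. Depth is unknown.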

Additional observations from a re-analysis of the deposited data

How the results depend on the processing

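The 6 members that passed, 3 higher and 3 lower, were the count under every alternative except 5 with a minimum mean of 5 FPKM, which leaves Rbm47 untested, and 5 with an unmoderated linear model on FPKM. That model passed 1289 genes in all, against 1935. Esrp2, with means of 3.46 FPKM without Dox and 7.26 FPKM with Dox, met the minimum of 5 FPKM only through the +Dox libraries. Leaving out 1 library passed 1069 to 1384 genes, with fewer samples in the fit, and the count fell by over 1.5 times without MinusDox replicate 2 (1266) or PlusDox replicates 1 (1250), 2 (1254) or 3 (1069). Limma without the trend passed 3 genes of the 6 splicing lists, against 6. The difference in the ratio of Esrp2 to Esrp1 was 0.627 with a pseudocount of 1 and -2.40 with 0.01, against -0.37. With 8 bases (CAGTATTA) 3 members held a seed match, and with 6 bases (AGTATT) 8 did, against 5. Leaving out single libraries, the log2 fold change ranged from -0.0379 to 0.0405 for Srsf1 and from -0.0870 to 0.0242 for Celf1, both across 0 and neither passing. Where not given by construction, the cause was not tested. No scaling moved the median of all genes by over 0.1 on the log2 scale.

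Deviations from the group means of libraries with the same replicate number had correlations across genes of 0.0287, 0.0359 and -0.00759. Between libraries with different numbers they ran from -0.0511 to 0.0235. All are near 0, and with 3 libraries per group they cannot settle whether the numbers pair the libraries. With the number as a replicate block 6 members, 1337 genes in all and 5 genes of the splicing lists passed. Unknown depth limits what can be said of Esrp1.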

Other observations

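Across the 10812 tested genes with an annotated 3′ UTR, the share that passed limma at an adjusted p under 0.05 and was lower with Dox was 7.40% of 8988 genes with 0 matches to the miR-200c seed, 15.7% of 1482 genes with 1 match, 16.4% of 275 genes with 2 and 31.3% of 67 genes with 3 or more. The share that was higher was 8.54%, 4.93%, 1.82% and 1.49%. The median length of the 3′ UTR also differed between these classes, from 1185 bases with 0 matches to 5123 bases with 3 or more, and its part in these shares was not tested.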
